A study of Mus musculus with 20 samples.

Results

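Imprinted genes are expressed mainly from the maternal or the paternal chromosome, and the choice is written in DNA methylation at control regions that differ between the parental copies. The Dlk1 to Dio3 domain carries protein-coding genes read from the paternal copy (Dlk1, Rtl1 and Dio3) and the long noncoding RNAs Meg3, Rian and Mirg read from the maternal copy, whose transcripts host clusters of small nucleolar RNAs and miRNAs. This domain is known from reprogramming because Meg3 is silenced in some iPSC lines. Chromatin accessibility at 10 imprinted genes was examined here: Dlk1, Meg3, Rian, Mirg and Dio3 on chromosome 12, and H19, Igf2, Peg3, Snrpn and Kcnq1ot1 on chromosome 7. Members were the regions with a peak within 20 kb of the annotated span of a gene (GENCODE M21, mm10), a rule on position alone. The rule gave 596 of 1582423 peaks and 116 of 335858 regions in 20 libraries, where a region is a merged run of overlapping peaks.

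The libraries are ATAC-seq, in which the Tn5 transposase cuts accessible DNA. OG2 mouse embryonic fibroblasts (MEFs), from mid-gestation embryos of OG2 fathers and 129S2/SvPasCrl mothers and carrying an Oct4-GFP transgene as reporter, were infected in 2 rounds with pMXs retroviruses for Oct4 and for either native Nanog (Nanog+Oct4) or NanogN70 (NanogN70+Oct4), the label for NANOG fused to the BRG1-binding N-terminal segment of SS18, which belongs to the BAF remodeling complex. Both infected populations were kept in iCD3 medium and, after day 7, in N2B27 with 2i and LIF. Each was sampled with 1 library on day 0, on day 1 and then on days 3, 5, 7, 8, 10 and 12, beside 1 library of uninfected MEFs and 3 libraries of embryonic stem cells (ESCs), which were derived from OG2 embryos and kept in N2B27 with 2i and LIF. The sources used here do not name the animals behind each library. The titles name the 3 ESC libraries as ESC while their source field reads MEF, and they were grouped by title. Wherever 8 values are listed below, they are in the order of these days, and 0 stands for no peak.

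Values at single regions are summit pileups, the number of tags over the highest summit of a library in the region, which the authors did not scale to depth. The relative pileup divides this by the median pileup of the same library over the 14217 regions that every one of the 20 libraries had in its peak list. That median was 39 in MEFs, 29 to 38 in ESCs, 16 to 38 with Nanog+Oct4 and 16 to 60 with NanogN70+Oct4. The sources used here give no read numbers, so a region without a peak was not detected at the depth of that library and may still be accessible. The peak files do not separate the parental copies, and in a mixed population a lower pileup from fewer cells with an accessible copy cannot be told apart from weaker accessibility in every cell. The labels were checked against peaks within 2 kb of the starts of marker genes. All 8 fibroblast genes had a peak in MEFs and 7 of 8 ESC genes had one in each ESC library, but 7 of 8 fibroblast genes had a peak in ESCs too, so that list does not separate them. The ESC list separates them only in part, since 4 of its 8 genes (Nanog, Esrrb, Tdgf1 and Utf1) had a peak in MEFs. In ESCs, Esrrb lacked one in replicates 1 and 3 and Pou5f1 in replicate 2. The NanogN70+Oct4 library of day 3 stood apart: 9 of 10 T lymphocyte genes and 10 of 10 leukocyte genes had a peak in it, against 0 to 4 and 1 to 6 in the other 19 libraries, and its median pileup of 60 was the highest of all 20. The part of this library in the results was not tested further, and the path tests and the counts of days are given with and without day 3.

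The sequences under the summits of the regions on which the results turn are given first. Each is the mm10 reference (GRCm38.p6, plus strand) 100 bases to either side of the summit of the highest-scoring peak. They are shown because the values below turn on these regions, and they were searched for the letters of factors known from these loci: ZFP57 is a zinc finger protein that binds a methylated TGCCGC and protects imprints after fertilization, CTCF is the insulator protein of the H19 and Igf2 control region, and YY1 sites lie in the first intron of Peg3. Capitals mark matches on either strand to CTCF core GGNGGCAG, ZFP57 TGCCGC, YY1 AAGATGGC, octamer ATGCAAAT and AP-1 TGANTCA, where the ZFP57 letters lie within a CTCF core whose N is C. The windows 11.9 kb upstream of Meg3, 2.6 kb downstream of its start, 3.2 kb upstream of H19 and at the Kcnq1ot1 start hold none of them. The window labelled Mirg 3′ end lies wholly downstream of the annotated end of Mirg (chr12:109749460), which only the wider region overlaps.
Meg3, 13.4 kb upstream (chr12:109527525-109527725): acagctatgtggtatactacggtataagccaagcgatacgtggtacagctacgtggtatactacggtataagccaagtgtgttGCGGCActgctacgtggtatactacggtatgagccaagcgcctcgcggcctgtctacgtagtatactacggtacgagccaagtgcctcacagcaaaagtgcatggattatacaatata
Meg3, 11.9 kb upstream (chr12:109529011-109529211): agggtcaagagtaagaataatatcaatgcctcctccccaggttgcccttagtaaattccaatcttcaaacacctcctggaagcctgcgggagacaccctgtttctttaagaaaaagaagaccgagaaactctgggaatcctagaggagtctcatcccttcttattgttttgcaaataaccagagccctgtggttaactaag
Meg3, 1.7 kb upstream (chr12:109539220-109539420): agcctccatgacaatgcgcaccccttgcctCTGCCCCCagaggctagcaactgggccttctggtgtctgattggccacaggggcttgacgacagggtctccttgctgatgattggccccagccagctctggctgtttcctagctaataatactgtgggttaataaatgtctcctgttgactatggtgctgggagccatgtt
Meg3 start (chr12:109540778-109540978): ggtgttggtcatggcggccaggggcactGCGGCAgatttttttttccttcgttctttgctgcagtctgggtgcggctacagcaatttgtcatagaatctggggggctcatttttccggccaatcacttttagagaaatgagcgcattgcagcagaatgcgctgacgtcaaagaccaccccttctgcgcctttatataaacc
Meg3, 2.6 kb downstream of the start (chr12:109543537-109543737): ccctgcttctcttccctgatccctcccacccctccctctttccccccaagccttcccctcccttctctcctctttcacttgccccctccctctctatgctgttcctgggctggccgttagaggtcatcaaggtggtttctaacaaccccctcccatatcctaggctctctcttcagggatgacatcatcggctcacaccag
Mirg 3′ end (chr12:109749771-109749971): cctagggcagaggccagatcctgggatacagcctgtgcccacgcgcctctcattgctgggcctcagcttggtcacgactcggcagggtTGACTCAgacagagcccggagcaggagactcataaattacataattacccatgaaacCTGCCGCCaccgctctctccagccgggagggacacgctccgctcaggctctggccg
H19, 2.2 kb upstream (chr7:142580272-142580472): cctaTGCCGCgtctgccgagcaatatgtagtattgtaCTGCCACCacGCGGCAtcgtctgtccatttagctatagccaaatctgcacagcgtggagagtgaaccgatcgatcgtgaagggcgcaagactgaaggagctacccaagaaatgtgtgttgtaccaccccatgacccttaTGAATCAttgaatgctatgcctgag
H19, 3.2 kb upstream (chr7:142581251-142581451): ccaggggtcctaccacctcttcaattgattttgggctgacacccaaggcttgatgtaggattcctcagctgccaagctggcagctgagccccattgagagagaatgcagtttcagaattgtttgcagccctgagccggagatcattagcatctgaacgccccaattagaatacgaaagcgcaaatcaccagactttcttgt
H19, 3.7 kb upstream (chr7:142581773-142581973): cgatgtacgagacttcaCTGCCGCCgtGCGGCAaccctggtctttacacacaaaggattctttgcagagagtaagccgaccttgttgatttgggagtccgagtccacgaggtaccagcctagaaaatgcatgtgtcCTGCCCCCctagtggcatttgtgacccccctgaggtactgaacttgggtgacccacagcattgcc
Peg3 intron (chr7:6728725-6728925): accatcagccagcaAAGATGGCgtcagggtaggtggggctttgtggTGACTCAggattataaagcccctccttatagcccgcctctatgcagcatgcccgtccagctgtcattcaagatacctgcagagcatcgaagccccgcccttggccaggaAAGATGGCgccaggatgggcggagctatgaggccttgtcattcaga
Snrpn intron (chr7:60004215-60004415): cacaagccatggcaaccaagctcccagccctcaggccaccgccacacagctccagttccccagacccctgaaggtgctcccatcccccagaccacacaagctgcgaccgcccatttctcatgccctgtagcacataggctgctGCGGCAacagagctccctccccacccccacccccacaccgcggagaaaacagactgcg
Kcnq1ot1 start (chr7:143296570-143296770): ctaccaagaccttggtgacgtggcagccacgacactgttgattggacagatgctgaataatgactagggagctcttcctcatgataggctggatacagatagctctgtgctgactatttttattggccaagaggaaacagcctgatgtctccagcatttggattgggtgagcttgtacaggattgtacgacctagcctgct

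The window 13.4 kb upstream of Meg3 repeats the run gtggtatactacggtat, 17 bases long, 3 times. A run of at least 12 bases that holds a CpG and occurs 3 or more times in its window was found in 1 of the 116 regions and in 0.293% of the 335775 regions of the main chromosomes, a search added after this sequence had been seen. ZFP57 letters lay within 100 bp of the summit in 11 of 116 regions (9.48%), against 3.67% of all regions. The share was 7.76% against 7.79% for the CTCF core, 1.72% against 1.36% for YY1, 1.72% against 2.65% for the octamer and 13.8% against 17.3% for AP-1. The median GC content of these windows was 52.7% at the imprinted genes and 47.8% over all regions, with a median of 4 and 2 CpGs. These matches are a description of the letters and not evidence of binding.

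Of the 116 regions, 66 lay in the Dlk1 to Dio3 domain, 20 at H19 and Igf2, 9 at Peg3, 8 at Snrpn and 13 at Kcnq1ot1. MEF-only regions, with a peak in MEFs and in no ESC library, numbered 29 (25%, 95% exact binomial interval 17.4 to 33.9), where 22.2% of all regions were of this kind. With the 44126 top-scoring peaks of each library that order turned, to 14.5% against 15.6%. ESC-only regions, with a peak in 2 or 3 ESC libraries and none in MEFs, numbered 15 (12.9%, 7.42 to 20.4), against 16.5%. With a minimum score of 100 this order turned too, to 20.6% against 17.9%. Shared regions, with a peak in MEFs and all 3 ESC libraries, numbered 19 (16.4%, 10.2 to 24.4), against 9.34%. A further 37 regions (31.9%, 23.6 to 41.2) had a peak in neither cell type, against 38.7%, and the other 16 had one in MEFs and 1 or 2 ESC libraries (3 regions) or in 1 ESC library alone (13 regions). The intervals cover counting error only and treat the regions as independent, although 66 of the 116 lie in 1 domain. They are no test against the shares of all regions.

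A peak was found in 51 of the 116 regions in MEFs, in 36 to 43 in ESCs, in 17 to 31 with Nanog+Oct4 and in 17 to 34 with NanogN70+Oct4. As a share this was 44% in MEFs, 31% to 37.1% in ESCs and 14.7% to 29.3% in the time course, where 34%, 25.8% to 31.6% and 11.3% to 28.3% of all regions had a peak. The mean over the 8 days was 22.6 regions with Nanog+Oct4 and 23 with NanogN70+Oct4, a difference of 0.375 with an SD over days of 8.12, higher with NanogN70+Oct4 on 3 days and lower on 4. Without day 3 the difference was 0.857 (SD 8.65), and its sign turned without day 0 (−1.71), day 1 (−0.286) or day 12 (−0.429). The difference between paths was smaller than the spread between days. Of the 116 regions, 49 had a peak in a single library (14 in MEFs, 10 in an ESC library, 13 with Nanog+Oct4 and 12 with NanogN70+Oct4), with pileups of 3 to 19 and a median of 6, and these carry little weight. Regions with a peak in all 20 libraries numbered 5 (4.31%), against 4.23% of all regions.

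**Figure D1:**
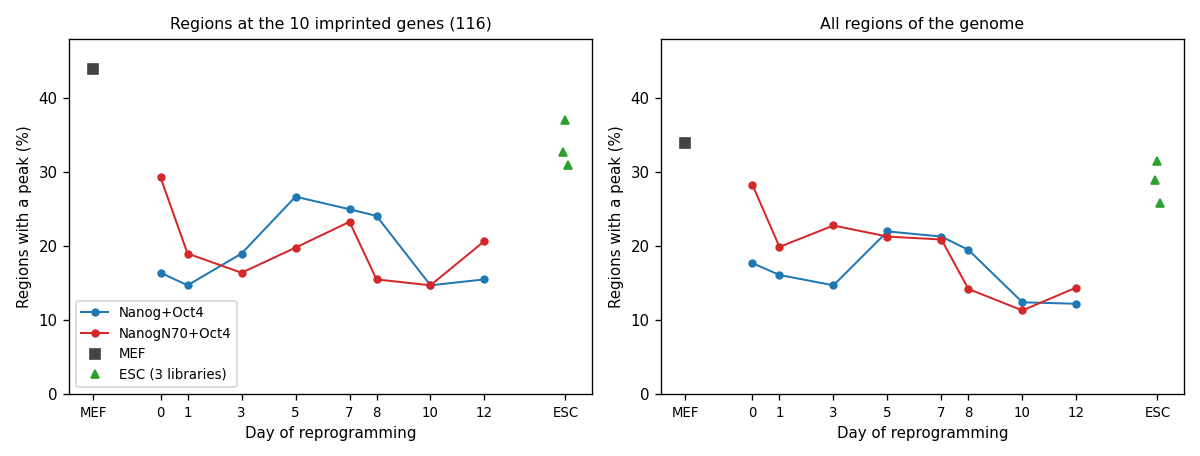
Share of regions with a peak in each library (y axis, percent) at the imprinted genes (left, 116 regions) and over the genome (right, 335858 regions), by day of reprogramming (x axis), with MEFs at the left and the 3 ESC libraries at the right of each panel. Every point is 1 library. At the imprinted genes the share was 44% in MEFs, 31% to 37.1% in ESCs and 14.7% to 29.3% in the time course, and over the genome it was 34%, 25.8% to 31.6% and 11.3% to 28.3%.

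Around Meg3, MEFs and ESCs shared 2 regions and otherwise had peaks at different places. Meg3 (ENSMUSG00000021268.17, chr12:109541001-109571726, plus strand) is a long noncoding RNA, and the control region of the domain, the IG-DMR, lies between Dlk1 and Meg3. Upstream of Meg3, 5 regions had peaks in at least 2 libraries. The region with the repeated run, chr12:109527159-109527795, had a pileup of 15 in MEFs and of 39, 56 and 35 in the ESC libraries, which is a relative pileup of 0.385 against 1.3 ± 0.151 (SD, n = 3). It was found in 2 of 16 time course libraries, with a pileup of 3 on day 1 with Nanog+Oct4 and of 6 on day 8 with NanogN70+Oct4. All ESC values lay above the MEF value, and both paths lay below it on every day.

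Of its neighbours, 3 were found in all ESC libraries and in at most 1 other library. The region chr12:109525649-109526131, 15.2 kb upstream, had pileups of 17, 19 and 14 in ESCs and no peak in the other 17 libraries. At chr12:109528698-109529338, 11.9 kb upstream, pileups were 18, 28 and 20 in ESCs, and the only other peak was one of 5 on day 8 with Nanog+Oct4. At chr12:109538758-109539453, 1.7 kb upstream, they were 15, 19 and 22 in ESCs with no other peak. These 3 ESC-only regions thus stayed undetected from day 0 to day 12 apart from that single peak, in both paths. The fifth, chr12:109528190-109528390, had no peak in ESCs and one of 8 in MEFs and of 11 on day 0 with NanogN70+Oct4. At chr12:109530709-109531025 a peak was found in ESC replicate 2 alone, with a pileup of 19.

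The start of Meg3 showed the opposite order. At chr12:109540521-109541172, which spans the annotated start of transcription, the pileup was 13 in MEFs and no ESC library had a peak. With Nanog+Oct4 it was 11, 6, 11, 18, 19, 18, 15 and 8, and with NanogN70+Oct4 it was 15, 7, 8, 13, 15, 7, 10 and 13. A peak was therefore present in MEFs and all 16 time course libraries and absent from all 3 ESC libraries. Of the 29 MEF-only regions it was the 1 (3.45%) that had a peak in every time course library, against 0.42% of all MEF-only regions, and it was also the only one without day 3 (0.434% of all). By contrast 14 of the 29 (48.3%) had no peak in the time course at all, against 44.4%, and without day 3 the number was 14 too, against 45.9%. Relative pileup was 0.333 in MEFs and averaged 0.529 with Nanog+Oct4 and 0.387 with NanogN70+Oct4.

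Within Meg3, 2.6 kb downstream of the start, the region chr12:109542708-109543871 overlaps an exon and had a peak in all 20 libraries. The pileup was 37 in MEFs and 42, 48 and 46 in ESCs, a relative pileup of 0.949 against 1.39 ± 0.174 (SD, n = 3). With Nanog+Oct4 it was 16, 22, 25, 41, 35, 35, 30 and 16, and with NanogN70+Oct4 it was 21, 13, 15, 13, 24, 21, 14 and 16. Relative to the library medians the NanogN70+Oct4 value was the lower on 8 of 8 days, and the paths overlapped in range. With the regions upstream, ESCs had peaks on both sides of the Meg3 start and none at it.

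**Figure D2:**
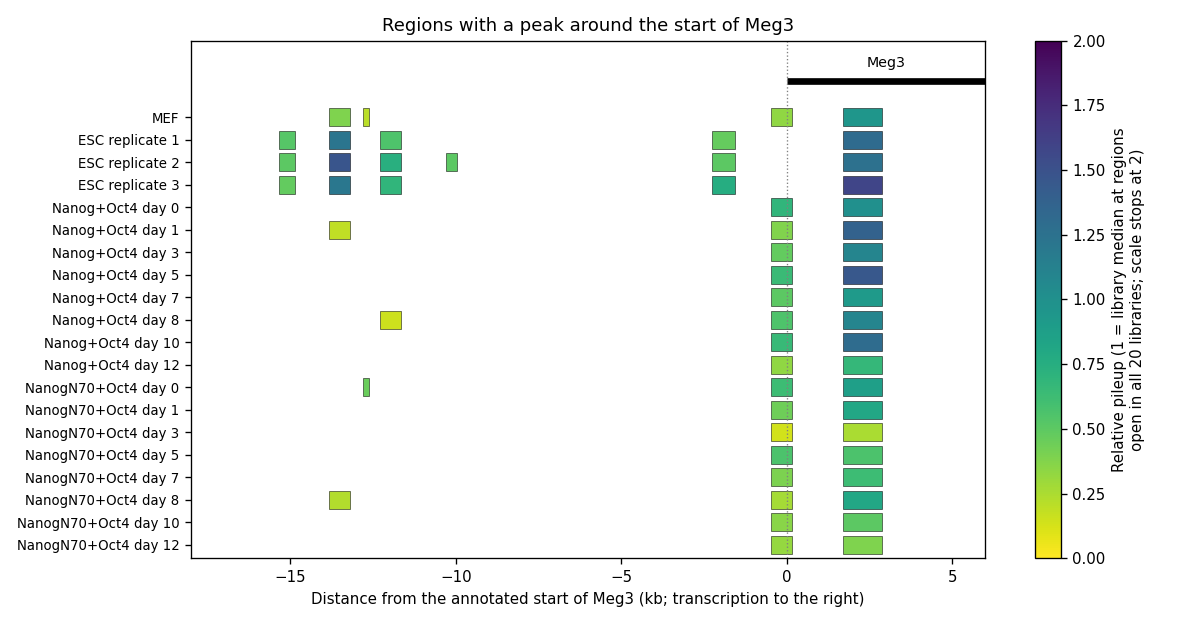
Regions with a peak around the Meg3 start in each of the 20 libraries (rows), by distance from the annotated start in kb (x axis), with the relative pileup in color (1 is the median of the library at regions found in all 20). The 3 ESC rows hold blocks 11.9 to 15.2 kb and 1.7 kb upstream and none at the start, while MEFs and all 16 time course rows hold a block at the start.

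The paths were compared at each region with a two-sided exact permutation test that flips the sign of the 8 daily differences in relative pileup (NanogN70+Oct4 minus Nanog+Oct4), for the 26694 regions with a peak in at least 12 of 16 time course libraries, of which 11 lay at the imprinted genes. The days are successive samples and not replicates, so the test asks only whether these libraries differ by path across days. No region of the genome passed an adjusted p of 0.05 (Benjamini-Hochberg over all regions tested, 0% in either direction), and the smallest adjusted p was 0.167. With 8 days no p of this test can fall below 0.00781. A region could thus pass only if a large share of the 26694 tied at that value, so the lack of calls does not show that the paths are alike. At an unadjusted p under 0.05, 3 of the 11 regions were lower with NanogN70+Oct4, against 11.3% of all regions, and 0 were higher, against 6.95%. All 3 lay in the Dlk1 to Dio3 domain, which held 6 of the 11. Scaled instead by the median pileup of all peaks of a library, 2 of the 11 passed that p. The Meg3 exon was lower and the Snrpn region 0.8 kb from the start of Snrpn-201 was higher. Over all regions 1657 were then lower and 2058 higher. On the main scale without day 3, 2 of the 11 were lower (the Meg3 exon and the Mirg 3′ end), against 8.98% of all regions, and 1 was higher (the same Snrpn region), against 7.19%. In the Meg3 exon the mean daily difference was −0.51 (SD over days 0.305, lower on 8 of 8 days, exact permutation p = 0.00781, the smallest that 8 days allow, adjusted p = 0.167), and −0.463 without day 3 (exact permutation p = 0.0156). At the Meg3 start it was −0.142 (SD 0.15, lower on 7 of 8 days, exact permutation p = 0.0312, adjusted p = 0.216), and −0.112 without day 3 (exact permutation p = 0.0625), where it missed that threshold, as it also did without day 5, 7, 8 or 10 and in an exact permutation test not paired by day (p = 0.073). None of these differences passed the correction.

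Mirg hosts a large share of the miRNAs of the domain. The region chr12:109749236-109750323, called the Mirg 3′ end here, overlaps the end of the gene, but its highest-scoring summit lies downstream of it. This region was the highest of the domain in MEFs, with a pileup of 82, and had 9, 14 and 11 in ESCs, a relative pileup of 2.1 against 0.343 ± 0.0537 (SD, n = 3). With Nanog+Oct4 it was 30, 26, 35, 24, 56, 42, 24 and 20, and with NanogN70+Oct4 it was 32, 17, 21, 17, 23, 14, 28 and 37. Of the 16 time course libraries, 15 had a relative pileup between the MEF value and the ESC values, and that of day 3 with NanogN70+Oct4, at 0.35, lay within the ESC range. The mean daily difference between paths was −0.501 (SD 0.438, lower on 7 of 8 days, exact permutation p = 0.0234, adjusted p = 0.212), and −0.406 without day 3 (exact permutation p = 0.0469). It missed an unadjusted p of 0.05 when scaled by the median pileup of all peaks of a library (exact permutation p = 0.0625). A second region, chr12:109745745-109746640 in an intron of Mirg, had no peak in MEFs or ESCs. Its pileup was 8, 0, 14, 17, 17, 9, 0 and 9 with Nanog+Oct4 and 13, 16, 18, 21, 21, 10, 0 and 0 with NanogN70+Oct4, and the difference between paths did not pass the test (0.109, SD 0.424, exact permutation p = 0.562, adjusted p = 0.793). Without day 3 it was 0.169 (exact permutation p = 0.344), and over all days left out in turn it ran from −0.0182, without day 1, to 0.178, without day 12. Of the 37 regions with a peak in neither cell type it was the 1 (2.7%) found on 5 or more days of both paths, against 1.62% of all such regions and 0.804% without day 3.

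**Figure D3:**
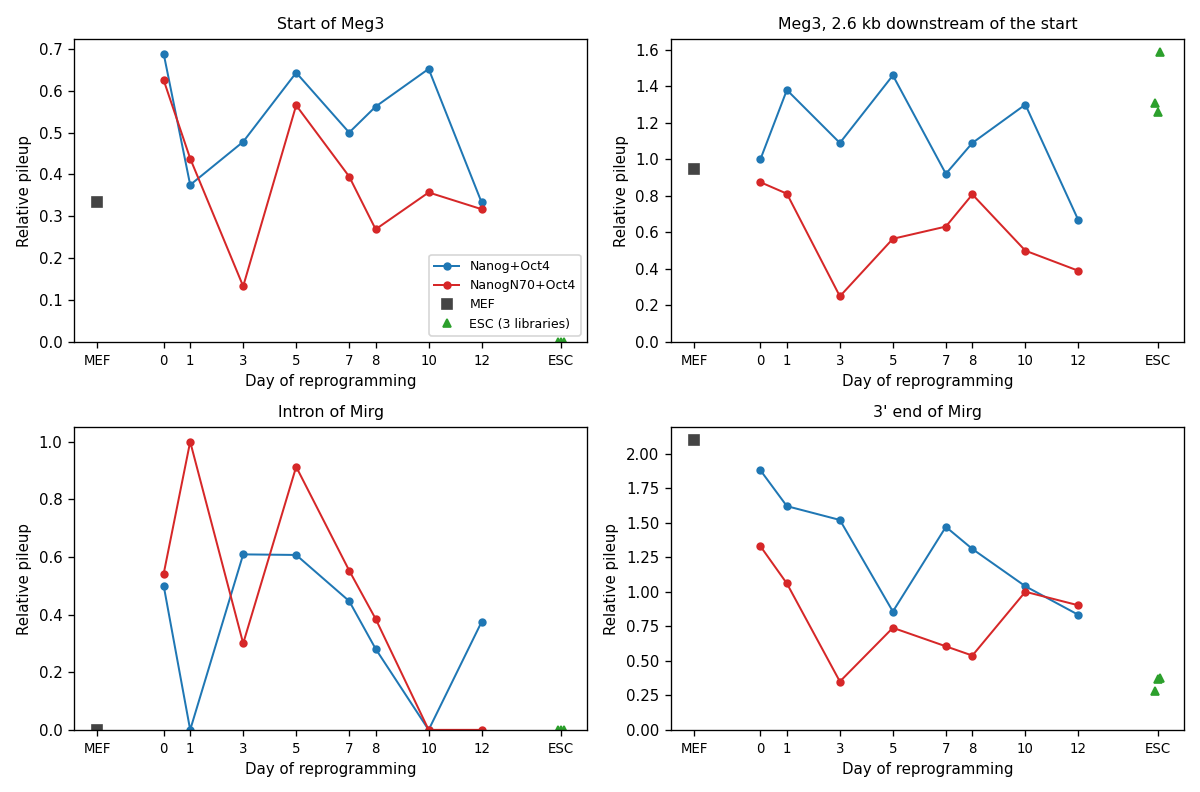
Relative pileup (y axis) by day (x axis) at the Meg3 start, in the Meg3 exon 2.6 kb downstream, in the Mirg intron and at the Mirg 3′ end, for Nanog+Oct4 (blue) and NanogN70+Oct4 (red), with MEFs (square) and 3 ESC libraries (triangles). Every point is 1 library and 0 means no peak. The red line lies below the blue on 8 of 8 days in the Meg3 exon and on 7 of 8 at the Meg3 start and the Mirg 3′ end, and the Mirg intron is at 0 in MEFs and ESCs.

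Rian (chr12:109603940-109661716, plus strand), host of small nucleolar RNAs, had 24 regions, the most of any gene, but 14 of them had a peak in neither MEFs nor ESCs and 9 of those 14 were found in a single time course library. No region lay within 2 kb of its start. The exonic region chr12:109606122-109607072 had no peak in MEFs or ESCs, pileups of 0, 0, 8, 25, 22, 11, 0 and 0 with Nanog+Oct4 and of 5, 11, 18, 16, 14, 10, 0 and 9 with NanogN70+Oct4, so that it was found on 4 and 7 days. The exonic region chr12:109626909-109627258 was high in MEFs, at 31, had 15 and 7 on days 0 and 1 with Nanog+Oct4 and 8 on day 0 with NanogN70+Oct4, and was found in no later library and in no ESC library. Another, chr12:109649542-109650014, was found on days 0 and 1 alone, with 11 and 5 with Nanog+Oct4 and 23 and 14 with NanogN70+Oct4. The latter pair was thus found in the time course on days 0 and 1 only, and the first of these regions from day 3 to day 8 with Nanog+Oct4 and on every day but day 10 with NanogN70+Oct4.

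RefSeq places 58 miRNA hairpins within the windows, 56 of them in the Dlk1 to Dio3 domain. Of these, 5 (8.62%) overlapped a region, 4 regions in all, against 18.4% of the 1005 hairpins that the table places on the main chromosomes. The mature sequences of these miRNAs are given 5′ to 3′ (RefSeq, GRCm38.p6), with the seed, bases 2 to 8, in capitals, because the seed sets which messages a miRNA can pair with.
miR-432: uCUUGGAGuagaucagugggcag
miR-543-5p: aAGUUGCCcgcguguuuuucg
miR-543-3p: aAACAUUCgcggugcacuucuu
miR-412-5p: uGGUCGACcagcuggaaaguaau
miR-412-3p: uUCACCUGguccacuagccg
miR-369-5p: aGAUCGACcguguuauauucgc
miR-369-3p: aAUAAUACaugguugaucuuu
miR-1247-3p: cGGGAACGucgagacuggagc
miR-1247-5p: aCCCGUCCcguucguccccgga
No seed occurred more than once among these 9 mature sequences. The region at Mir432, inside Rtl1, had pileups of 7 in MEFs and 13, 8 and 11 in ESCs, and of 7 on day 7 with Nanog+Oct4 and 4 on day 5 with NanogN70+Oct4. At Mir543 the pileup was 8, 10 and 12 in ESCs with no other peak, and the region at Mir412 and Mir369 had its only peak, of 12, on day 7 with NanogN70+Oct4. The region at Mir1247, in Dio3os, had 8 in MEFs and 5 on day 8 with Nanog+Oct4. Of the 4 regions, the ones at Mir543 and Mir432 were thus the only ones found in all 3 ESC libraries.

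The 2 protein-coding genes at the ends of the domain had weak peaks at their starts. Dlk1, a transmembrane protein related to Notch ligands, starts at chr12:109452823, and the region chr12:109453029-109453479 had pileups of 11 in MEFs and 10, 8 and 7 in ESCs, with 6 and 5 on days 8 and 10 with Nanog+Oct4 and no peak with NanogN70+Oct4. Upstream, chr12:109437519-109438304 had 24 in MEFs and 26, 25 and 15 in ESCs. In the time course this region had 0, 9, 12, 16, 14, 13, 8 and 6 with Nanog+Oct4 and 9, 7, 61, 8, 15, 11, 9 and 11 with NanogN70+Oct4 (difference 0.0695, exact permutation p = 0.422, adjusted p = 0.697). The value of 61 belongs to the library with peaks at leukocyte genes, and without day 3 the difference was 0.00878 (up to 0.111, without day 5). Dio3, the deiodinase that inactivates thyroid hormone, starts at chr12:110279068. There the region chr12:110278592-110279274 had 7 in MEFs and 19, 25 and 20 in ESCs, with 5 on day 12 with Nanog+Oct4 and 6, 7 and 6 on days 0, 7 and 8 with NanogN70+Oct4. All 3 ESC values lay above MEFs, as at chr12:110280368-110280803 downstream, with 13, 23 and 14 in ESCs and no other peak.

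H19 and Igf2 share a control region that lies upstream of H19, where CTCF binds the unmethylated maternal copy and keeps enhancers from Igf2. H19 (ENSMUSG00000000031.16, chr7:142575529-142578143, minus strand) is a long noncoding RNA of the maternal copy. Its start region, chr7:142578058-142578511, had a pileup of 34 in MEFs and of 7, 9 and 10 in ESCs, a relative pileup of 0.872 against 0.267 ± 0.0682 (SD, n = 3). With Nanog+Oct4 it was 6, 0, 0, 9, 16, 10, 0 and 7 and with NanogN70+Oct4 it was 11, 5, 0, 0, 8, 8, 0 and 11, each found on 5 days. All 16 relative values lay below the MEF value. The region chr7:142574462-142575696, which overlaps the 3′ end and has its summit downstream of the gene, had a peak of 19 in MEFs alone.

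Upstream of H19 the order was the reverse at the nearest region. At chr7:142580182-142580524, 2.2 kb upstream, with 1 CTCF core and 2 ZFP57 matches, no peak was found in MEFs, and the ESC pileups were 17, 9 and 8. It was 0, 0, 12, 24, 7, 6, 7 and 6 with Nanog+Oct4 and 7, 6, 19, 8, 11, 12, 11 and 10 with NanogN70+Oct4. Among the 15 ESC-only regions it was the one found in the most time course libraries, on 6 and 8 days, whereas 10 of the 15 (66.7%) were found in none, against 66.1% of all ESC-only regions (10 and 69.5% without day 3). The difference between paths did not pass the test there (0.0517, SD 0.293, exact permutation p = 0.641, adjusted p = 0.842), and was 0.0884 without day 3. It ran from 0.00557, without day 1, to 0.132, without day 5, and its sign turned over the days on which both paths had a peak (−0.0421). At chr7:142581245-142581573, 3.2 kb upstream, pileups were 16, 12 and 16 in ESCs, 8 and 11 on days 5 and 7 with Nanog+Oct4, and there was no other peak. At chr7:142581646-142581955, 3.7 kb upstream, with 2 CTCF core matches, it was 11 in MEFs, 10 in ESC replicate 1, 8, 9, 9 and 6 on days 3, 5, 7 and 8 with Nanog+Oct4 and 8 and 11 on days 0 and 3 with NanogN70+Oct4. The region chr7:142580527-142580867, 2.6 kb upstream, with a further CTCF core, had 11 in ESC replicate 3 and 9 and 5 on days 3 and 5 with NanogN70+Oct4.

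**Figure D4:**
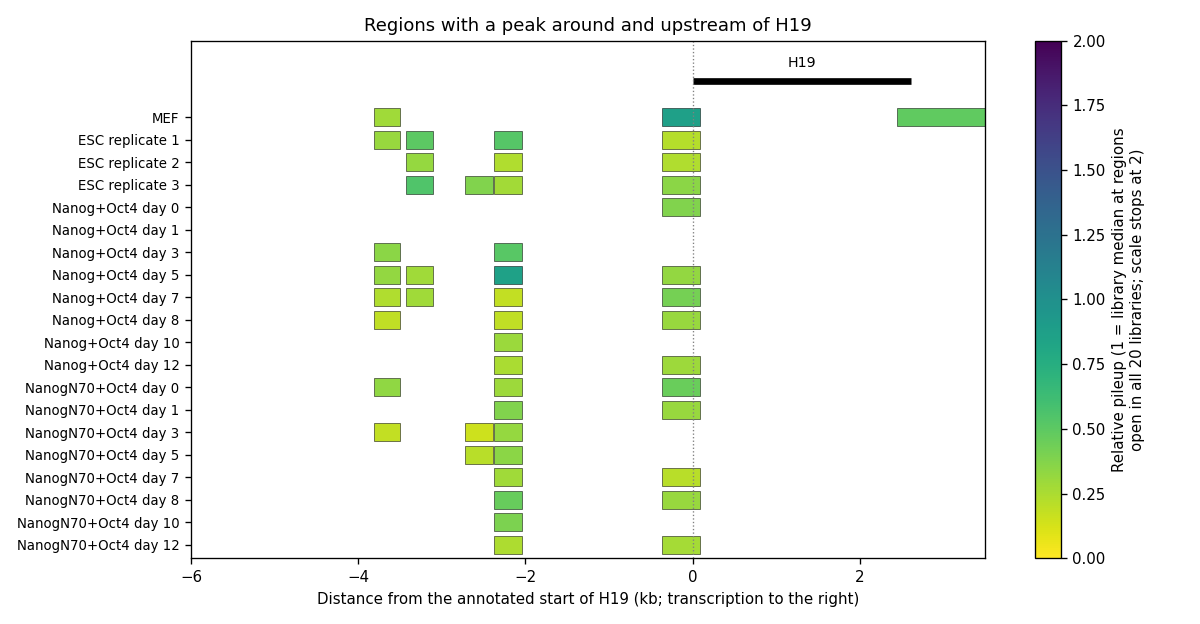
Regions with a peak from 6 kb upstream of H19 to its 3′ end in each of the 20 libraries (rows), by distance from the annotated start in kb (x axis, transcription to the right), with the relative pileup in color (1 is the median of the library at regions found in all 20). The block 2.2 kb upstream is missing in MEFs, present in the 3 ESC rows and found in 6 of 8 Nanog+Oct4 and 8 of 8 NanogN70+Oct4 rows, and the block at the start is darkest in MEFs.

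Igf2 (chr7:142650766-142666816, minus strand) encodes a growth factor of the paternal copy. The region chr7:142656033-142656788, 0.2 kb upstream of the start of the transcript Igf2-209, had 33 in MEFs and 8 in ESC replicate 1 alone. It had 9, 8 and 12 on days 0, 1 and 3 with Nanog+Oct4 and 16, 12, 11 and 8 on days 0, 1, 7 and 8 with NanogN70+Oct4. The region chr7:142656939-142657938, at the start of Igf2-201, had 28 in MEFs, 6 and 7 on days 5 and 8 with Nanog+Oct4, and no peak in ESCs or with NanogN70+Oct4. At chr7:142660234-142661288 the pileup was 15 in MEFs and 11, 20 and 10 in ESCs, and no time course library had a peak. The region chr7:142659070-142659701, at the start of the transcript Igf2-205 and 7.3 kb downstream of the gene start, had no peak in MEFs, 8 in ESC replicate 2, and 6 to 12 on 5 days of each path. The region within an intron nearest the gene start, chr7:142664478-142665037, had its only peak in MEFs, of 10.

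Peg3 (ENSMUSG00000002265.16, chr7:6703892-6730431, minus strand) encodes a zinc finger protein of the paternal copy, and its control region covers the first exon and the first intron. The highest pileups of the 116 regions were at this locus. The intronic region chr7:6726916-6729874 had a peak in all 20 libraries, with a pileup of 72 in MEFs and 87, 101 and 75 in ESCs, a relative pileup of 1.85 against 2.65 ± 0.0663 (SD, n = 3). The Nanog+Oct4 libraries had 29, 33, 49, 70, 80, 54, 47 and 40, and the NanogN70+Oct4 libraries had 39, 40, 33, 53, 67, 50, 46 and 83. The difference between paths did not pass the test (−0.209, SD 0.641, exact permutation p = 0.477, adjusted p = 0.738), and without day 3 it was −0.0136 (down to −0.302, without day 1). The start of Zim1, a neighbouring imprinted gene, was the highest of the 116 regions in MEFs at 127, with 69, 90 and 66 in ESCs and 24 to 57 in the time course (difference 0.0796, exact permutation p = 0.688, adjusted p = 0.867). That difference was 0.209 without day 3 (exact permutation p = 0.203) and −0.0231 without day 5, so its sign rests on day 5.

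The start of Peg3 had a peak in fewer libraries than its intron. At chr7:6729916-6730746, which Peg3 and Usp29 share as a bidirectional start, the pileup was 58 in MEFs and 45, 51 and 34 in ESCs. In the time course with Nanog+Oct4 it was 12, 0, 15, 0, 0, 0, 0 and 20, and with NanogN70+Oct4 it was 19, 0, 13, 0, 0, 0, 36 and 31. A peak was missing on days 1, 5, 7 and 8 in both paths, although the intronic region was found on each of those days. The scores of the 7 time course peaks there were 56.8 to 143, where the lowest score kept by the peak caller was 50, although their pileups reached 36. The region lies close beside the intronic one. Whether the missing peaks mean lower accessibility or only peaks that were not called was not tested.

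Snrpn, which encodes a splicing protein on the paternal copy, has upstream starts far from its main promoter, and the control region of the locus lies at that promoter. No region was found within 2 kb of the start of the annotated gene (chr7:59982495-60140219, minus strand), and the regions with its highest pileups lay around the start of the transcript Snrpn-201. At that start, chr7:60005009-60005274, pileups were 9 in MEFs and 19, 15 and 20 in ESCs, 8, 5 and 4 on days 3, 7 and 10 with Nanog+Oct4, and 6, 7, 4, 9, 7 and 9 on days 0, 3, 5, 7, 10 and 12 with NanogN70+Oct4. The intronic region chr7:60003597-60004549, 0.8 kb downstream, had 10 in MEFs and 26, 38 and 30 in ESCs, a relative pileup of 0.256 against 0.949 ± 0.119 (SD, n = 3). It was 0, 0, 7, 0, 7, 0, 5 and 8 with Nanog+Oct4 and 5, 3, 8, 4, 8, 7, 9 and 12 with NanogN70+Oct4. All ESC values lay above every other library at this region.

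The ESC-only region chr7:60002817-60003369 had 30, 27 and 25 in ESCs, 9 on day 12 with Nanog+Oct4 and 7, 6 and 16 on days 7, 10 and 12 with NanogN70+Oct4, so its peaks in the time course were late. The ESC-only region chr7:60006114-60006601 had 12, 16 and 18 in ESCs and no other peak. Summed over the locus, the mean number of Snrpn regions with a peak was 1.25 with Nanog+Oct4 and 2.12 with NanogN70+Oct4, a difference of 0.875 (SD over days 0.641), higher on 6 days and lower on 0, and it was 1 (SD 0.577) without day 3. At the other loci this difference was −0.375 (SD 4.17) in the Dlk1 to Dio3 domain, 0.125 (SD 2.53) at H19 and Igf2, −0.25 (SD 0.886) at Peg3 and 0 (SD 1.6) at Kcnq1ot1. Over the genome the share of regions with a peak averaged 17% with Nanog+Oct4 and 19.1% with NanogN70+Oct4, higher with NanogN70+Oct4 on 4 days and lower on 4. Of the 81 regions found in the time course at the 10 genes, 4 (4.94%) were found on at least 3 more days with NanogN70+Oct4, against 6.39% of all regions, and both Snrpn regions at 0.8 kb and at the start were among them, beside the Rian exon region above and chr7:143197960-143198501 in an intron of Kcnq1. The count was 4 without day 3 too (5.44% of all regions). In relative pileup the difference at the 0.8 kb region did not pass the test over 8 days (0.0947, SD 0.147, exact permutation p = 0.117, adjusted p = 0.392). Without day 3 it was 0.133, with an exact permutation p of 0.0469 that did not pass the correction (adjusted p = 0.29). Its sign turned over the days on which both paths had a peak (−0.0203, exact permutation p = 0.75).

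Kcnq1ot1 (chr7:143203458-143296549, minus strand) is a long noncoding RNA of the paternal copy that starts within an intron of Kcnq1, at the control region of that cluster. Its start, chr7:143295362-143296928, had a peak in all 20 libraries. The pileup was 39 in MEFs and 46, 66 and 49 in ESCs, a relative pileup of 1 against 1.62 ± 0.161 (SD, n = 3). In the Nanog+Oct4 path it was 27, 17, 19, 20, 30, 30, 24 and 22 and in the NanogN70+Oct4 path 24, 24, 65, 23, 41, 26, 22 and 46. The difference between paths did not pass the test (0.0741, SD 0.371, exact permutation p = 0.57, adjusted p = 0.8) and was 0.0479 without day 3, 0.0221 without day 1 and 0.183 without day 0 (exact permutation p = 0.0781). The relative value of 1.08 on day 3 with NanogN70+Oct4 was within the range of the other days. Along the transcript chr7:143288997-143289522 was ESC-only, with 8, 17 and 9, and had 4 on day 7 with Nanog+Oct4 and 6, 6 and 8 on days 0, 5 and 7 with NanogN70+Oct4. At 2 regions of this locus and 1 near Dio3 (3 of 81, 3.7%, against 5.45% of all regions), a peak was found on at least 3 more days with Nanog+Oct4. These were chr7:143264013-143264258 with 7, 7, 6 and 7 on days 3, 5, 8 and 10, chr7:143310927-143311194 with 5, 6 and 5 on days 3, 5 and 8, and chr12:110298626-110299102 with 4, 7 and 9 on days 1, 5 and 7, none of which had a peak with NanogN70+Oct4. Without day 3 the count was 2 (4.9% of all regions).

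**Figure D5:**
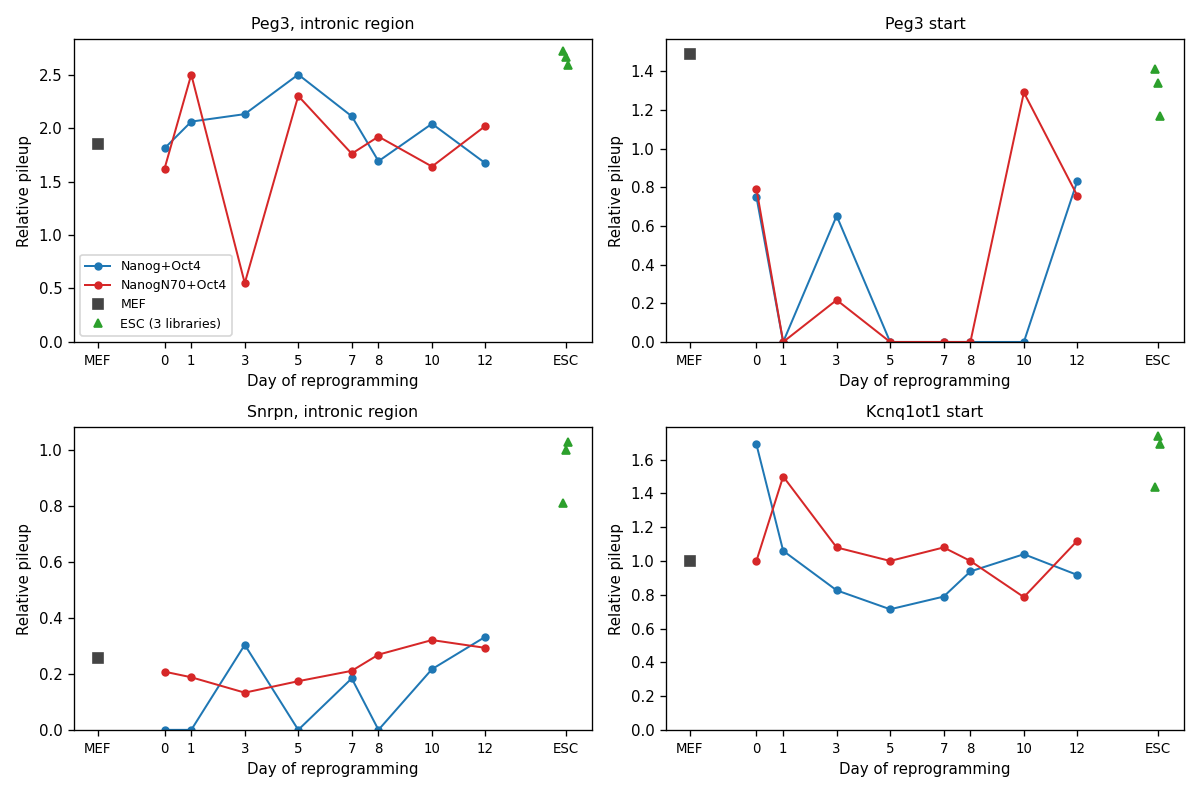
Relative pileup (y axis) by day (x axis) at the Peg3 intronic region, the Peg3 start, the Snrpn intronic region and the Kcnq1ot1 start, for Nanog+Oct4 (blue) and NanogN70+Oct4 (red), with MEFs (square) and 3 ESC libraries (triangles). Every point is 1 library and 0 means no peak. The Peg3 start is at 0 on days 1, 5, 7 and 8 in both paths, and at the Snrpn region all ESC points lie above every other library.

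Across loci, the starts were compared by the number of the 20 libraries in which a pair of regions was in the same state, with or without a peak. The Meg3 start shared its state in 17 of 20 libraries with the Zim1 start, the Peg3 intron and the Kcnq1ot1 start, all found in every library, and differed from them in the 3 ESC libraries. The same count holds against each of the 14217 regions found in all 20. The region 1.7 kb upstream of Meg3 was in the same state as the ESC-only Snrpn region chr7:60006114-60006601 in 20 of 20 libraries, as was chr12:110280368-110280803 near Dio3. All regions found in the 3 ESC libraries alone match in this way, and 66.1% of all ESC-only regions had no peak in the time course. These matches are therefore not particular to the pairs named. Likewise the H19 start matched chr12:109436302-109436584, upstream of Dlk1, in 17 of 20. These counts describe libraries that share their depth and carry no test.

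A list of 48 other imprinted genes was used as the wider family, of which 47 were found in the annotation. Counting a peak within 2 kb of the gene start, 39 of 47 starts had one in MEFs, 41 or 42 in ESCs, 28 to 39 with Nanog+Oct4 and 27 to 39 with NanogN70+Oct4. The mean share was 83% in MEFs, 88.7% in ESCs, 70.7% with Nanog+Oct4 and 73.4% with NanogN70+Oct4, against 58.1%, 59.3%, 50.9% and 52.2% of all gene starts. All genes here are the 31541 annotated as protein-coding, lincRNA, antisense or processed transcript. The list was not matched to them by gene type or by breadth of expression, so the gap in shares is not particular to imprinting. The starts of 19 genes (40.4%) had a peak in all 20 libraries, against 39.5% of all 31541 genes, among them Igf2r and Airn, the pair in which a long noncoding RNA silences a growth factor receptor gene, and Peg10 and Sgce, which share a start. No library had a peak at 2 starts (4.26%), those of Ins2 and Ddc, against 26.7%. Rtl1, the paternal gene antisense to miRNAs in the Dlk1 to Dio3 domain, was the 1 start (2.13%) with a peak in MEFs and none in ESCs, against 5.16%. At 4 starts (8.51%), those of Kcnq1, Slc22a18, Plagl1 and Kcnk9, a peak was found in ESCs and not in MEFs, against 7.36%. Cdh15, a cadherin gene, was the 1 start (2.13%) with a peak on at least 3 more days with NanogN70+Oct4, 8 against 4, where 2.61% of all genes were of this kind, and 0 of 47 had 3 more days with Nanog+Oct4, against 1.61%. Without day 3 these counts were 1 (1.92% of all genes) and 0 (1.37%), 19 starts had a peak in each of the other 18 libraries (39.6%), and 3 had one in none of them (28%), Tspan32 beside Ins2 and Ddc.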

How the data were processed

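ATAC-seq reads of 20 libraries were trimmed with Trim Galore 0.6.4, aligned to mm10 with Bowtie2 2.4.5 and filtered with SAMtools 1.16.1 by the authors, who called peaks in each library with MACS 1.4.2, keeping duplicates and naming no input control. The score the authors deposited for each peak is its MACS p-value on a −10·log10 scale (lowest 50), and the deposited signal of a summit is the coverage there in whole tags (lowest 3). Peaks overlapping by 1 bp were merged. All peaks on 21 chromosomes ended within the GRCm38.p6 sequence, and 14 other sequence names were not used for sequences. Relative pileup, classes and the exact permutation test are defined in the results. The test was checked on simulated data before use. Groups came from sample titles, and GENCODE M21 gave the genes. The 48 regions named by rule were those within 2 kb of a member's start, upstream of Meg3 (20 kb) or H19 (6 kb), and, per locus, those with the highest relative pileup in MEFs, ESCs and the time course (3 each) or the largest difference in days found (2 each way). Regions named beside these were those with a path test, those overlapping a miRNA hairpin, those most alike in state to a gene start and, chosen after their values were seen, single regions of Meg3, Rian, Mirg, H19 and Igf2. The members, lists and rules were chosen with earlier results of these data known. Peg13 was not found by name. Scripts used Python 3.11.15, NumPy 2.4.6, SciPy 1.17.1, pysam 0.24.0 and matplotlib 3.10.9. Alternatives were a minimum score of 100, other windows, scalings, filters and left-out libraries or days.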

Additional observations from a re-analysis of the deposited data

How the results depend on the processing

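The difference between paths in the number of regions with a peak stayed within 1 SD of days under every alternative run, from −1.71 to 1.86 when each day was left out. MEF-only, ESC-only and shared shares ranged from 25% to 26.7%, 11.2% to 12.1% and 16.4% to 17.2% when each ESC replicate was left out. With a minimum score of 100 the ESC-only share was 20.6% (of 63 regions), against 17.9% of all 182271 regions, where without that minimum it lay below the share of all regions. With the 44126 top-scoring peaks of each library the MEF-only share was 14.5% (of 55 regions), against 15.6% of all 159788 regions, where with all peaks it lay above the share of all regions. The shared share was 14.3%, against 11.6%, with the minimum score and 12.7%, against 9.62%, with the top-scoring peaks. The number of imprinted regions past an unadjusted p of 0.05 ranged from 2 to 4 when each day was left out, and none passed the adjusted threshold under any alternative of the path test. The alternatives paired by day could hardly pass it, because so few days limit the smallest p. Scaling by the median pileup of all peaks of a library moved the median difference over all 26694 regions from −0.0118 to 0.115 and the share of regions higher with NanogN70+Oct4 among those with unadjusted p under 0.05 from 38.1% to 55.4%, while the differences in the Meg3 exon, at the Meg3 start and at the Mirg 3′ end kept their sign (−1.44, −0.374 and −1.33 on that scale, with exact permutation p of 0.0156, 0.102 and 0.0625). At the Snrpn region chr7:60003597-60004549 that scaling gave 0.318 (exact permutation p = 0.0312, adjusted p = 0.291). The sign turned at 4 regions that had not passed the test: with days without a peak in either path left out, at chr7:60003597-60004549 (−0.0203) and chr7:142580182-142580524 (−0.0421), without day 1 at chr12:109745745-109746640 (−0.0182), and without day 5 at chr7:6695952-6696752 (−0.0231). The cause was not tested. For the other imprinted genes, a window of 500 bp gave 75.2% of starts with a peak in ESCs, 58.5% with Nanog+Oct4 and 61.2% with NanogN70+Oct4, and a minimum score of 100 gave 81.6%, 59% and 61.2%, where the main values were 88.7%, 70.7% and 73.4%. Over all gene starts these were 51.3%, 44.7% and 45.7%, then 53.3%, 44.5% and 46.3%, and 59.3%, 50.9% and 52.2%. The counts without day 3 were chosen after seeing the data. The path test pairs libraries by day, and in a permutation test not paired by day 2 of the 11 regions passed an unadjusted p of 0.05, the Meg3 exon (p = 0.0014) and the Mirg 3′ end (p = 0.0141). By replicate number no paired analysis was possible because the labels number several replicates for the ESC libraries alone. Depth is unknown, so peaks missing from a library may lie below its limit of detection.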

Other observations

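Further regions of the loci followed other courses. Upstream of Dlk1, chr12:109436302-109436584 had pileups of 16 in MEFs and 11, 22 and 15 in ESCs, was found on days 0 to 8 with Nanog+Oct4 (6, 8, 10, 12, 14 and 11) and was missing on days 3, 5 and 10 with NanogN70+Oct4. Nearer to Dlk1, chr12:109445658-109446372 had 20 in MEFs, 9 and 17 in ESC replicates 1 and 2, 6 to 20 on 7 days with Nanog+Oct4 and 5 to 17 on 7 days with NanogN70+Oct4 (difference −0.127, exact permutation p = 0.219, adjusted p = 0.516), and the difference was −0.111 without day 3, −0.198 without day 0 (exact permutation p = 0.0312, adjusted p = 0.235) and −0.0739 without day 5. Downstream of Mirg, chr12:109764373-109764656 had 18 in MEFs, 8 and 5 on days 0 and 1 with Nanog+Oct4 and 9 and 4 on the same days with NanogN70+Oct4, and no peak later or in ESCs. In the Kcnq1ot1 span, chr7:143208222-143208438 had its only peaks, of 6 and 9, on days 0 and 1 with NanogN70+Oct4. In a Meg3 exon 25.8 kb downstream of the start, chr12:109566577-109566888 had 12, 11 and 6 in ESCs and no other peak.

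Other regions near the gene starts, or with a difference in days found, had weak peaks in few libraries. At the Dlk1 start, chr12:109452822-109452974 had its only peak, of 8, in ESC replicate 2. Upstream of the Mirg start, chr12:109727960-109728083 had one of 5 on day 0 with Nanog+Oct4, and upstream of Dio3, chr12:110277841-110277990 had one of 5 on day 10 with Nanog+Oct4. In a Meg3 exon, chr12:109560125-109560314 had 6 and 8 on days 10 and 12 with NanogN70+Oct4. Near the start of Snrpn-201, chr7:60004636-60004779 had 4 on day 5 with Nanog+Oct4, and chr7:60004797-60004954 had 6 in MEFs and 7 on the same day and path. In the Kcnq1ot1 span, chr7:143254994-143255215 had 5 and 6 in ESC replicates 1 and 2. In introns of Kcnq1, chr7:143305674-143306141 had 6 in MEFs and 7 on day 12 with Nanog+Oct4, and chr7:143310436-143310599 had 15 in MEFs and 8 and 5 on days 5 and 7 with Nanog+Oct4. In an intron of Usp29, chr7:6743040-6743282 had 13 on day 5 with Nanog+Oct4. An exonic region of Zim1, chr7:6688682-6689107, was found more widely, with 16 in MEFs, 17, 13 and 12 in ESCs, 4, 9, 8, 9 and 8 on days 0, 1, 3, 5 and 8 with Nanog+Oct4, and 17, 8 and 8 on days 0, 1 and 3 with NanogN70+Oct4.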
